A study of Oncorhynchus mykiss with 15 samples.

Results

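Mature adipocytes from intramuscular fat (IMAT) of rainbow trout (Oncorhynchus mykiss) were compared with mature adipocytes from visceral fat (VAT). The comparison took the 5 libraries titled IMAT and the 5 titled VAT, 10 of the 15 libraries in the series, by their labels. The other 5 libraries, from subcutaneous fat (SAT), also entered the filter on low counts, the normalization and the estimate of the spread between libraries. All groups were adult fish acclimated for 1 month and kept at 15 °C under 12 h of light and 12 h of darkness. They were fasted for 24 h, with no treatment applied. The depots were dissected, and adipocytes were freed by mechanical means and collagenase type II.

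Adipocytes store fatty acids as triglycerides in lipid droplets and release them when other tissues need fuel. In trout, visceral fat lies around the gut and its associated organs and is a main lipid store, while intramuscular fat lies among the muscle fibres of the fillet. Each depot thus borders on different tissues, and a preparation from either can carry RNA from cells other than adipocytes. Genes carry Ensembl identifiers without names in the deposited table, and 0 of 64494 identifiers were found in the supplied gene table. The labelled cell type was therefore not checked against marker genes, and RNA from other cells cannot be told apart from adipocyte RNA here. In bulk RNA, fewer cells of a type and less RNA per cell also cannot be told apart. The fish behind each library is not given in the labels, so p-values measure only the spread between these libraries.

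A library stood apart in each depot. IMAT replicate 2 was dominated by a few transcripts, with only 17 genes holding 50% of its counts, against 427 to 854 genes in the other IMAT libraries. VAT replicate 5 had the most genes holding 50% of its counts of the 10 libraries, 1088, against 691 to 788 in the other VAT libraries. The means were 457.8 ± 300.9 genes (SD, n = 5) in IMAT and 804.6 ± 163.1 in VAT, and the difference did not pass after adjustment (exact two-sided permutation test, p = 0.0476, adjusted p = 0.0595 over 5 library measures). Fewer genes reached 100 CPM, a count rescaled so that all libraries have equal totals, in IMAT, with 684 in replicate 2 and 1190 to 1478 in the others, than in VAT, with 1512 to 1710, and the groups did not overlap (means 1201 ± 310.05 and 1577 ± 76.7, SD, n = 5; exact permutation test, adjusted p = 0.0198). The difference of the means, IMAT minus VAT, was -376.4 genes. It shrank to -247.25 without IMAT replicate 2 and still passed (exact permutation test, adjusted p = 0.0397). When the most abundant gene was left out of every library, the difference was -267 and did not pass (exact permutation test, adjusted p = 0.0635). That adjustment left total counts out of the 5 library measures, so it cannot be set beside the value with all genes. This setting was not adjusted over all 5 measures. The number of genes at 10 CPM or more averaged 11545 ± 2076 in IMAT and 12654 ± 402.9 in VAT and did not pass (exact permutation test, adjusted p = 0.278), with 7951 in IMAT replicate 2 and 11950 to 13306 in its fellow libraries. The IMAT libraries were also shallower, with 2413951 to 4199494 counts against 5872244 to 9414223 in VAT, so that 3 counts stood for 1.09 to 1.44 CPM in IMAT and 0.28 to 0.466 CPM in VAT on the normalized scale.

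**Figure D1:**
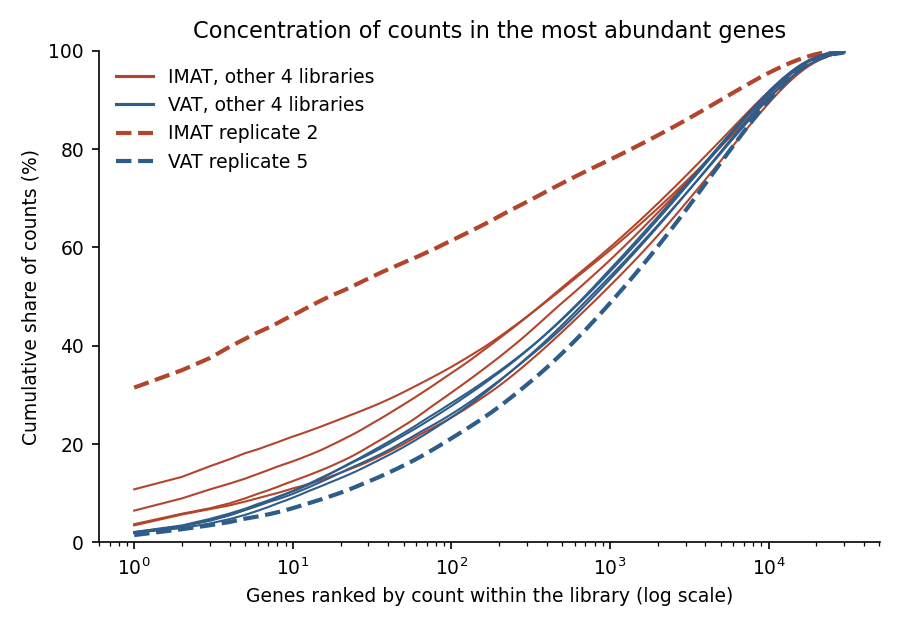
Cumulative share of each library's counts (%) against genes ranked by count within that library (log scale), for the 5 IMAT and the 5 VAT libraries. The line of IMAT replicate 2 starts at 31.5% for its first gene and lies above all others, and that of VAT replicate 5 starts at 1.49% and lies lowest over the first 1000 ranks.

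More genes were higher than lower in intramuscular adipocytes, and the genes higher there differed by larger factors. Of 25695 genes tested, 5442 (21.2%) had a Benjamini-Hochberg adjusted p under 0.05 in the edgeR quasi-likelihood test. Of all genes tested, 13.1% (3355 genes) were higher in IMAT and 8.12% (2087 genes) were lower. The median log2 fold change was 2.69 among genes higher in IMAT and -1.42 among those lower, against -0.095 over all genes tested. These medians were the same when the 10 and 13 genes without any count in the lower depot were set at the bound that 3 counts over the depot allow. So few of the 3355 and 2087 genes could hardly move a median, so this is no test of the floor. All 5 libraries of a depot lay beyond all 5 of the other in 15.0% of genes tested (9.72% higher in IMAT, 5.24% lower). Among the called genes this separation held for 71.2% of those higher in IMAT and for 53.4% of those lower, and among genes not called for 1.68%. The same libraries gave the calls and the separation, so these shares describe the called genes and are no test. Without IMAT replicate 2, VAT replicate 5 and SAT replicates 4 and 5 together, 3878 genes were higher and 2472 lower, and of the genes called with all libraries 3035 and 1692 were called again in the same direction. The number lower in IMAT depended most on the method. It fell to 1269 of 23025 genes tested when the 10 libraries were fitted alone and to 1384 of 21025 at equal depth. The number higher fell too in these settings, to 2729 and 2464. When the null hypothesis was a log2 fold change within 1, the number lower fell to 520, against 2061 higher. With no filter on low counts the number lower rose to 2929 of 51656 genes tested, against 3327 higher, and with DESeq2 to 2680, against 3980 higher.

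**Figure D2:**
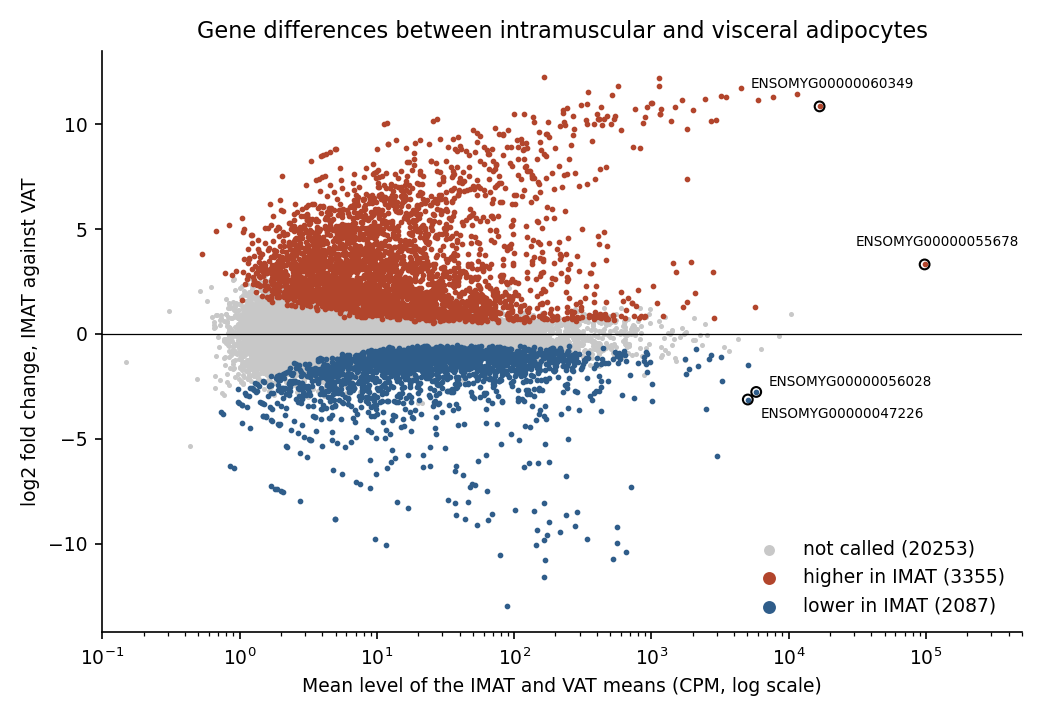
Log2 fold change of IMAT against VAT for each of 25695 genes tested, against the mean of the 2 depot means (CPM, log scale). Red points are the 3355 genes higher in IMAT, blue points the 2087 lower and grey points those not called, and the circled genes are the 4 described by identifier. Red points reach log2 fold changes above 10 over a wide range of levels up to the most abundant genes.

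The size of the differences was spread unevenly between the directions. Of the genes higher in IMAT, 8.29% had a fitted difference of less than 2-fold, 26.8% by 2- to 4-fold, 20.7% by 4- to 8-fold, 25.1% by 8- to 32-fold and 14.6% by a log2 fold change of 5 to 8. Another 151 genes (4.50%) had a fitted log2 fold change of 8 or more, of which 9 had no counts in VAT and 14 had 1 to 3. Of the genes lower in IMAT, 23.9% differed by less than 2-fold and 47.1% by 2- to 4-fold, while 33 genes (1.58%) had a log2 fold change of that size in the other direction, of which 5 had no counts in IMAT and 11 had 1 to 3. Most genes lower in IMAT thus differed by less than 4-fold, and most genes higher in IMAT by more.

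The share of genes called rose with their level. It was 16.9% of 12466 genes at 1 to 10 CPM, 23.2% of 11597 genes at 10 to 100 CPM, 41.6% of 1393 genes at 100 to 1000 CPM and 58.6% of 87 genes at 1000 CPM or more, with the level taken as the mean of the 2 depot means. The directions were not balanced alike at each level. At 1 to 10 CPM, 1569 genes were higher in IMAT and 537 lower, at 100 to 1000 CPM 271 were higher and 309 lower, and at 1000 CPM or more 35 were higher and 16 lower. The class at 1 to 10 CPM lies near the floor of the shallower IMAT libraries, where 3 counts stood for 1.09 to 1.44 CPM, against 0.28 to 0.466 CPM in VAT. With no filter on low counts, over all levels, 3327 genes were higher and 2929 lower. How much depth or the filter adds to the balance in this class was not tested. In the class of most abundant genes the median log2 fold change was 10.19 for those higher in IMAT and -1.78 for those lower. A gene high in only 1 depot enters a high class through that depot, so the classes are not independent of the differences. Levels here are CPM on normalized library sizes. The low normalization factor of IMAT replicate 2 (0.501) scales its values up, which raises its part in the IMAT mean. How much these points add to the rise in the share called, or to the large folds in the top class, was not tested. The median 95% interval of limma-voom reached 1.25 on the log2 scale to either side at 1 to 10 CPM, 0.648 at 10 to 100 CPM, 0.644 at 100 to 1000 CPM and 0.870 at 1000 CPM or more, so above 10 CPM precision did not rise with level.

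**Figure D3:**
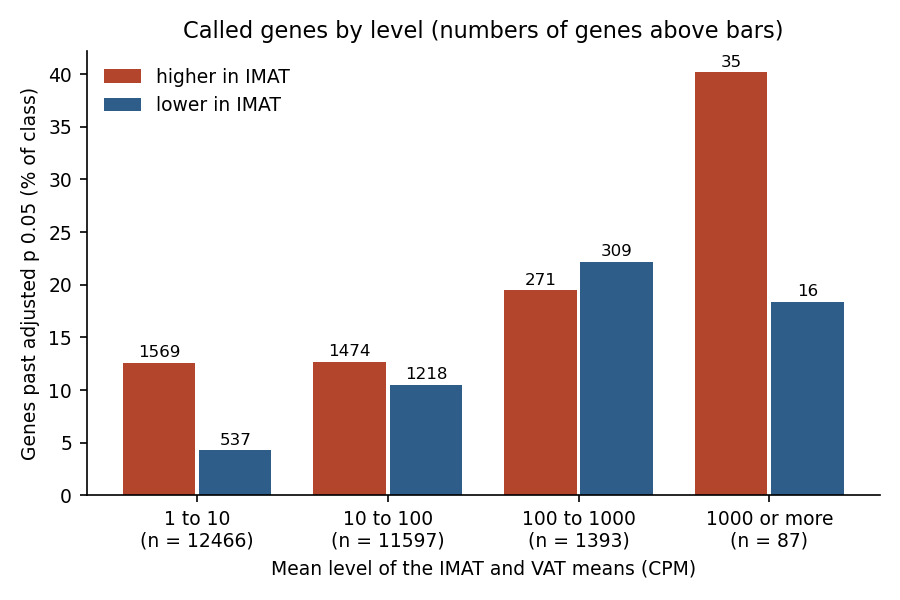
Genes past an adjusted p of 0.05 as a share (%) of each class of mean level (CPM), with red bars for genes higher in IMAT, blue bars for genes lower and the number of genes above each bar. At 1000 CPM or more, 40.2% of 87 genes were higher in IMAT and 18.4% lower, while at 100 to 1000 CPM the bars stand at 19.5% and 22.2%. The 152 genes below 1 CPM are not drawn.

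The genes higher in IMAT took up a large part of the IMAT libraries. Together the 3355 genes held 33.7%, 70.5%, 41.1%, 43.0% and 27.4% of the counts in IMAT replicates 1 to 5 and 6.29% to 8.26% in the VAT libraries. The 2087 genes lower in IMAT held 28.6%, 27.4%, 27.3%, 29.2% and 19.5% of the counts in VAT replicates 1 to 5 and a median of 7.24% in the IMAT libraries, the lowest of which was replicate 2 with 2.71%. No test was made of these shares, because the same libraries chose the genes. IMAT replicate 2 had the highest share of the former set, and VAT replicate 5 the lowest share of the latter among the VAT libraries. The 151 genes with a log2 fold change of 8 or more held 9.02% to 24.1% of the counts in IMAT (mean 14.8% ± 5.80, SD, n = 5) and a mean of 0.0143% ± 0.00842 in VAT. The 33 genes lower by as much held 1.19%, 3.10%, 0.960%, 0.680% and 0.237% of the counts in VAT replicates 1 to 5 and at most 0.00241% in an IMAT library. The excess in IMAT was concentrated in few genes. On the scale of normalized CPM, 7 genes made up 50% of the summed difference of the genes higher in IMAT, or 22 genes without IMAT replicate 2, against 64 genes for those lower.

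The 2 genes with the largest excess of mean CPM in IMAT were ENSOMYG00000055678 and ENSOMYG00000060349. Their levels, and those of the genes below, are CPM on library sizes scaled by the trimmed mean of M-values (TMM), and they compare libraries, not genes of different length. ENSOMYG00000055678 was measured at 39380, 633194, 72953, 113487 and 30597 CPM in IMAT replicates 1 to 5 and at 20526, 17867, 17519, 20411 and 13118 CPM in VAT replicates 1 to 5. All IMAT libraries lay above all VAT libraries, with replicate 2 far above the rest. The TMM factor was 0.501 in IMAT replicate 2 and 0.894 to 1.14 in the other IMAT libraries, which raises every CPM of replicate 2. As a share of counts, the gene held 31.5% of that library and not the larger share that its CPM implies. The log2 fold change was 3.31 (SE 0.705, edgeR adjusted p = 0.00183) and 1.81 without IMAT replicate 2 (edgeR adjusted p = 0.00265). The SAT libraries held 17385 to 32031 CPM, a range that overlapped with both depots.

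ENSOMYG00000060349 was measured at 22620, 71243, 27973, 26646 and 19512 CPM in IMAT replicates 1 to 5 and at 2.86, 11.8, 15.1, 38.8 and 22.4 CPM in VAT replicates 1 to 5. The groups were thus far apart, and this gene alone held 2.13% to 3.54% of the counts of each IMAT library. The log2 fold change was 10.85 (SE 0.870, edgeR adjusted p = 2.84e-08). With single libraries left out, its extremes were 10.35 (IMAT replicate 2 left out) and 11.32 (VAT replicate 4 left out). The 5 SAT libraries held 131.3 to 871.4 CPM, between both depots.

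The 2 genes with the largest deficit of mean CPM in IMAT were ENSOMYG00000056028 and ENSOMYG00000047226. ENSOMYG00000056028 was measured at 11492, 8523, 12846, 10680 and 7057 CPM in VAT replicates 1 to 5 and at 2069, 308.9, 1785, 2116 and 1166 CPM in IMAT replicates 1 to 5. The groups did not overlap, and the lowest value was that of IMAT replicate 2. The log2 fold change was -2.76 (SE 0.468, edgeR adjusted p = 0.000207). In SAT it averaged 6850 ± 2577 CPM (SD, n = 5).

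ENSOMYG00000047226 was measured at 10937, 8192, 9368, 12946 and 3783 CPM in VAT replicates 1 to 5 and at 1585, 651.8, 1170, 522 and 1254 CPM in IMAT replicates 1 to 5. VAT replicate 5 was the lowest of its depot and still lay above every IMAT library. The log2 fold change was -3.13 (SE 0.413, edgeR adjusted p = 1.33e-05), and the SAT mean was 2698 ± 730.8 CPM (SD, n = 5).

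**Figure D4:**
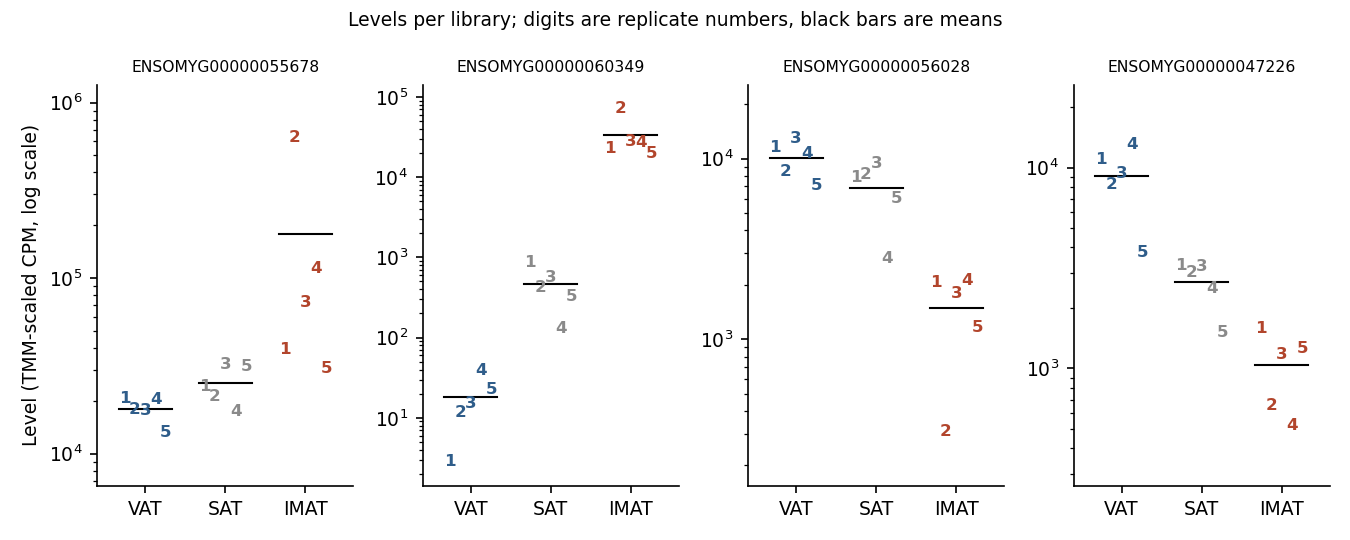
Levels of 4 genes in TMM-scaled CPM (log scale) in VAT, SAT and IMAT, with each library drawn as its replicate number and the mean of 5 libraries as a black bar. ENSOMYG00000060349 lies between 2.86 and 38.8 CPM in VAT and between 19512 and 71243 CPM in IMAT, and the lowest VAT value of ENSOMYG00000047226 is that of replicate 5.

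The leading genes of each direction varied between the libraries of a depot. The 10 genes with the largest excess of CPM in IMAT together held 9.83%, 45.6%, 15.2%, 19.7% and 8.88% of the counts in IMAT replicates 1 to 5 and at most 2.13% in a VAT library. IMAT replicate 2 was the highest IMAT library for all 10 of them, as it was for 52.7% of all genes higher in IMAT and 26.7% of all genes tested. Its own levels, scaled up by its low TMM factor of 0.501, raise the mean excess by which the 10 were ranked. The same scaling enters the shares of genes for which it was highest. The 10 genes with the largest deficit together held 5.50%, 5.06%, 5.32%, 5.52% and 2.80% in VAT replicates 1 to 5 and 0.147% to 0.803% in the IMAT libraries. VAT replicate 5 was the lowest VAT library for all 10, as it was for 56.8% of all genes lower in IMAT and 32.6% of all genes tested.

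Ranked by fold in place of CPM, the 10 leading genes higher in IMAT had mean levels of 328.2 to 22864 CPM in IMAT and 0.0384 to 8.09 CPM in VAT. They held 2.43% to 5.84% of the counts of each IMAT library. IMAT replicate 2 was the highest IMAT library for 9 of these 10 genes, against 52.7% of all genes higher in IMAT and 26.7% of all genes tested. The ratio of SD to mean over the IMAT libraries, on TMM-scaled CPM, ran from 51.5% to 104.7% among them. It ran from 63.4% to 144.2% for the 10 genes with the largest excess of CPM in IMAT. The 10 leading genes lower in IMAT had mean levels of 23.2 to 1304 CPM in VAT and 0 to 1.12 CPM in IMAT, with no counts in IMAT for 2 of them. They varied widely within VAT, holding 0.544%, 1.44%, 0.369%, 0.309% and 0.0815% of the counts in replicates 1 to 5. VAT replicate 2 was the highest VAT library for 9 of these 10 genes, against 9.39% of all genes lower in IMAT and 16.2% of all genes tested. VAT replicate 5 was the lowest for all 10, against the 56.8% and 32.6% given above. The ratio of SD to mean over the VAT libraries ran from 34.0% to 140.0% among them, against 22.9% to 43.9% for the 10 genes with the largest deficit of CPM.

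Few genes were counted in only one of the depots. At equal depth, with every library thinned at random to 2413951 counts, 13 of 11986 genes with a mean of at least 10 CPM in IMAT had no counts in the 5 VAT libraries. Of 13021 genes with at least 10 CPM in VAT, 6 had no counts in IMAT. In the counts as deposited, where VAT was deeper, the numbers were 2 of 11988 and 6 of 13008. A count of 0 allows up to 3 counts, so these genes were not detected at this depth rather than shown to be absent.

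The most abundant genes were partly shared. Of the 100 genes with the highest mean CPM in each depot, 47 were in both lists, and of the 1000 highest 630 were in both. Among the 100 highest in IMAT, 56 were higher in IMAT than in VAT, 10 were lower and 34 were not called. Among the 100 highest in VAT, 40 were lower in IMAT, 7 were higher and 53 were not called. The background for these counts is the 13.1% higher and 8.12% lower over all genes tested, and abundant genes were called more often in general. The means are of TMM-scaled CPM, and the IMAT mean includes replicate 2, scaled up by its factor of 0.501. Each list was ranked by the mean of its own depot in the same libraries, which favours genes higher in that depot. The background does not correct for this, so the counts describe the lists and are no test.

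For many genes not called, the data did not bound the difference closely. The 95% interval of limma-voom lay within a log2 fold change of 1 to either side for 6240 of the genes tested (24.3%), and for 40.2% of the 13077 genes with a mean of at least 10 CPM. Among the 20253 genes not called, the interval lay within that range for 6219 (30.7%) and reached beyond it for 14034 (69.3%). The intervals are those of single genes and were not widened for the number of genes. The 6240 genes held 28.0%, 13.4%, 25.3%, 25.0% and 29.6% of the counts in IMAT replicates 1 to 5 and 28.9% to 31.5% in the VAT libraries.

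The spread between libraries of a depot was similar over genes at 10 CPM or more in that depot, and each depot owed part of it to a single library. At equal depth, the median SD of log2(CPM + 1) over genes with a mean of at least 10 CPM in the depot was 0.485 in IMAT and 0.479 in VAT (n = 5 each). It was 0.384 in IMAT without replicate 2 and 0.345 in VAT without replicate 5. Among genes at 1000 CPM or more the medians were 0.784 over 82 genes in IMAT and 0.407 over 77 genes in VAT, and they were 0.409 without IMAT replicate 2 and 0.250 without VAT replicate 5. The coefficient of variation estimated by edgeR within a depot was 0.489 in IMAT and 0.430 in VAT, 0.397 without IMAT replicate 2 and 0.276 without VAT replicate 5.

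Single libraries followed the differences found in the others, least so IMAT replicate 5 in both directions and VAT replicate 5 for genes higher in VAT. Each library was left out in turn, the test was repeated, and the left-out library was set against the 5 libraries of the other depot in the genes then called, as far as these were also tested with all libraries. Those 5 libraries had been part of the test, which favours separation, so the shares are a description. Of the genes higher in IMAT, the left-out IMAT library lay above all 5 VAT libraries in 93.25%, 88.05%, 92.1%, 90.7% and 80.0% for replicates 1 to 5, against 21.7% to 30.5% of all genes tested. Of the genes lower in IMAT, it lay below all VAT libraries in 67.4%, 80.6%, 74.8%, 78.2% and 61.2%, against 23.7% to 40.2%. Of the genes higher in VAT, the left-out VAT library lay above all 5 IMAT libraries in 92.3%, 88.4%, 90.1%, 86.65% and 52.6% for replicates 1 to 5, against 19.2% to 27.2%. VAT replicate 5 lay above the median of the IMAT libraries in 78.7% of those genes, and the other VAT libraries in 98.01% to 99.3%. Over all genes tested these shares were 53.3% and 52.5% to 54.7%. Of the genes lower in VAT, the left-out VAT library lay below all 5 IMAT libraries in 89.9%, 83.2%, 88.1%, 85.2% and 82.3% for replicates 1 to 5, against 17.4% to 22.8% of all genes tested. VAT replicate 5 was thus the lowest here too, though by little. It lay below the median of the IMAT libraries in 94.9% of those genes, and the other VAT libraries in 98.6% to 99.6%. Over all genes tested these shares were 46.7% and 45.2% to 47.5%.

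**Figure D5:**
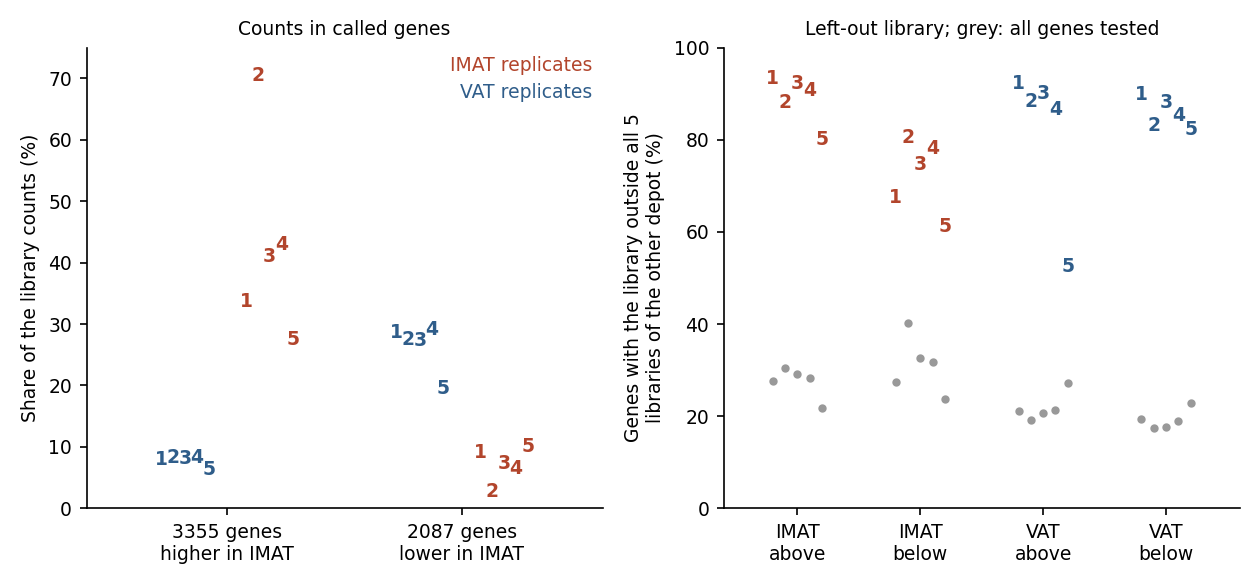
Left, share of each library's counts (%) in the 3355 genes higher and the 2087 genes lower in IMAT, with digits for replicates (red IMAT, blue VAT). Right, share of genes (%) called without a library in which that library lay above or below all 5 libraries of the other depot, in the direction of the call, with grey points for all genes tested. VAT replicate 5 stands at 52.6% for genes higher in VAT, and the other VAT libraries stand between 86.65% and 92.3%.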

How the data were processed

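RNA was read from mature adipocytes of 3 depots, 5 libraries each, as pairs of 150 bp after removal of ribosomal RNA. The deposited values were raw counts per gene. The authors trimmed, aligned and counted reads with tools that the submitters' processing notes list as Trimmomatic 0.30, STAR 2.5.2b and featureCounts of Subread 1.5.2, beside DESeq2 1.6.3. What build, annotation, strand and multimapping settings applied is not given in the sources used here, and counts of near-identical salmonid gene copies or overlapping genes are thus uncertain.

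Genes were kept by filterByExpr (minimum count 10, minimum total 15), which left 25695 genes with 99.0% of counts. All 15 libraries entered 1 fit with edgeR 4.0.16 in R 4.3.3 (TMM, robust quasi-likelihood, depot as the only term), which tested the contrast of IMAT against VAT. P-values were adjusted by Benjamini-Hochberg. The SE is the log2 fold change divided by the square root of F and is a rough guide. Intervals came from limma 3.58.1 (voom). For a single value per library, exact permutation tests were two-sided (252 arrangements, smallest p 0.00794). SDs within a depot used log2(CPM + 1) with each library centred on its median. Chi-square between libraries of a depot was at least 8.58 per degree of freedom, so none was counted as a repeat.

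The rule for genes printed by identifier took called genes with an absolute log2 fold change above 1 and no overlap between the depots (2256 higher in IMAT, 856 lower), ranked them by the difference of mean CPM and printed the first 2 in each direction. The 29 gene lists prepared could not be matched to identifiers and were not used. The comparison, though defined by labels alone, and the lists were chosen with earlier results of these data known. Sequences are not shown, since identifiers were not matched to any.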

Additional observations from a re-analysis of the deposited data

Results flagged for a closer look

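Of 30 sets of 5 values, 1 value per library of a depot, 11 had an extreme value separated from its nearest neighbour by more than 0.71 of their range, where chance alone would give about 1.5 for independent, normally distributed values. Many of these measures are linked, which makes that number a rough guide. The levels of genes printed by identifier and the count shares of gene sets also rest on genes chosen with these same libraries. For those sets the number expected by chance is no fair standard. All 11 concern IMAT replicate 2 or VAT replicate 5.

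IMAT replicate 2 stood above the other IMAT libraries with 4199494 counts in total (2413951 to 2655266 in the others) and with 61.4% of its counts in its 100 most abundant genes (25.4% to 35.7%). It had 7951 genes at 10 CPM or more, fewer than the others (11950 to 13306). On TMM-scaled library sizes, it was the highest IMAT library for ENSOMYG00000055678 with 633194 CPM (30597 to 113487 CPM in the others). The same held for ENSOMYG00000060349 with 71243 CPM (19512 to 27973 CPM). Its TMM factor of 0.501 raises both values, and ENSOMYG00000055678 held 31.5% of its counts. Genes whose 95% interval lay within a log2 fold change of 1 held 13.4% of its counts (25.0% to 29.6%).

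VAT replicate 5 stood apart from the other VAT libraries with 1088 genes holding 50% of its counts (691 to 788 in the others) and 1710 genes at 100 CPM or more (1512 to 1560). The genes higher in IMAT held 6.29% of its counts (7.96% to 8.26%) and the genes lower in IMAT 19.5% (27.3% to 29.2%). Genes not called held 72.9% (62.0% to 64.0%).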

How the results depend on the processing

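Of 205 alternative values computed, 194 kept their direction and their side of the threshold. For a count of differing genes, this meant staying within 1.5 times the reported number. Of the 205, 0 turned their direction, but a count of differing genes has no direction to turn. The genes printed by identifier were chosen as called and without overlap in these same libraries, which favours an unchanged direction. For those values the 0 is thus no test of robustness. The 5442 differing genes (3355 higher, 2087 lower) of 25695 tested were 3547, 2057 and 1490 of 14113 tested when genes needed 10 CPM in 5 libraries. That filter left fewer genes to test, so the smaller counts do not mean a smaller share called. The numbers were 2581, 2061 and 520 in edgeR's test against a log2 fold change of 1, which asks for a larger difference. Fitting the 10 libraries alone gave 2729 genes higher and 1269 lower in IMAT, and equal depth gave 2464 and 1384. The cause was not tested. DESeq2 1.42.0 called 6660 genes and limma-voom 4872. Leaving out single libraries gave 4726 to 6120 differing genes, 3115 to 3676 higher and 1564 to 2444 lower. With no filter on low counts 3327 were higher and 2929 lower. Over the 25695 genes also tested with the filter, the median log2 fold change was then -0.30. Over the same genes it was -0.07 with DESeq2 size factors and -0.11 with upper-quartile factors.

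The replicate numbers were not taken as pairs, since the labels do not give the fish behind each library. Deviations of same-numbered IMAT and VAT libraries correlated between -0.126 and 0.269, and 2 of 5 IMAT libraries correlated best with their own number. The same-number correlation lay above the mean with other numbers in replicates 1, 2, 3 and 5 and below it in replicate 4. Such weak correlations cannot tell whether same-numbered libraries came from the same fish. With the replicate number as a block, 5879 genes differed.

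The lower number of genes at 100 CPM in IMAT (-376.4) was -267 without the most abundant gene and did not pass (exact permutation test, adjusted p = 0.0635). That adjustment left out total counts, which the main one included, so the outcomes are not directly comparable. The adjusted p with total counts included was not computed. Not passing is therefore no finding that the difference depends on that gene. At equal depth, adjusted over the same smaller set of measures, the difference was -388.8 and passed (exact permutation test, adjusted p = 0.0318). Leaving out single libraries moved the difference of IMAT from VAT between -445.85 and -236.6 for the genes holding 50% of counts, between -1548 and -209.6 for the genes at 10 CPM, and between 5.75 and 14.7 percentage points for the 100 most abundant genes. Each of these 3 passed only without IMAT replicate 5 (exact permutation tests, adjusted p = 0.0198, 0.0476 and 0.0198). For the genes at 100 CPM the difference moved between -445.75 and -247.25. It passed with each single library left out (exact permutation tests, adjusted p = 0.0198 to 0.0397). Depth limits low genes in IMAT, where 3 counts are at least 1.09 CPM.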
